A study of Drosophila subpalustris with 2 samples.

Results

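Overlapping gene models on opposite strands were examined in the RNA of whole adult Drosophila subpalustris. The members were 82 of the 17716 gene models of this fly (0.463%), chosen by how many of their reads lay in a stretch annotated on both strands. For each model the deposited tables hold a sense count, an antisense count and a count made without regard to strand. A read in an exon of 1 model on each strand is assigned to a model in both strand-specific columns, but is ambiguous and left out when strand is ignored. The shared count is therefore the sense count plus the antisense count minus the strandless count. Members had a shared count of at least 50 in both libraries, belonged to the first 4 of the 7 runs of rising locus tags in the tables, and had a mean sense level below 1000 CPM (counts per 1000000 sense counts). The shared count and the CPM chose the members, so both are given as description.

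The data comprised 2 libraries of polyadenylated RNA, replicates 1 and 2, from 1 group. Each was made with a strand-marking kit from 1 µg of RNA of a separate pool of 10 to 20 adults, with males and females mixed in an unstated ratio, kept at room temperature on a cornmeal, sucrose and yeast food. No strain, genotype, age or treatment is named in the labels, and with both sexes and every tissue pooled, a level cannot be tied to a cell type. The sense column held 26141490 reads in replicate 1 against 25544996 in replicate 2, so that 50 counts correspond to 1.91 and 1.96 CPM. A count of 0 allows up to 3 counts, or 0.115 and 0.117 CPM, for counting error alone. The tables carry locus tags without gene names, and positions, lengths and sequences of the models were not analysed here.

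Genes that overlap on opposite strands are common in compact insect genomes. They may converge, so that their 3′ ends overlap, diverge from a common start region, or lie one inside the other. When both strands are transcribed, the transcripts are complementary over the overlap and form a natural antisense pair. In Drosophila melanogaster such pairs are a known source of endogenous small interfering RNAs, which Dicer-2 cuts from double-stranded RNA and Argonaute 2 uses. Strand-marking libraries are the usual way to tell the partners apart, because the sequence of a read alone often cannot.

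Members were spread over the 4 runs of tags, with 27 of 3160 models in the first, 19 of 2959 in the second, 18 of 3072 in the third and 18 of 3928 in the fourth. Together they held 65.2% of the shared counts of all models in replicate 1 and 67.1% in replicate 2, but 0.399% and 0.439% of the sense counts. Shared counts ran from 50 to 13105 in a library, with a median of 138 in replicate 1 and 144 in replicate 2. Just inside the minimum lay ACLKA7_011222 and ACLKA7_011223, each with 50 and 76 shared counts. Just outside lay 4 models with 48 in their lower library, among them ACLKA7_002294 with 48 and 96 and ACLKA7_002295 with 48 and 97. Over all models, 89 (0.502%) reached 50 shared counts in both libraries, and 3 of these were left out by the CPM limit alone.

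Most members came as neighbours. Of the 82, 70 formed 35 pairs of adjacent tags whose shared counts differed by at most 10% in both libraries, here called matched pairs. Such a match arises by construction where the 2 models overlap each other and no further model. A further 3 members matched an adjacent model above the CPM limit, 2 matched each other across an intervening tag, and 7 lay in 3 groups of 3 neighbouring models. Every member was thereby linked to at least 1 nearby model.

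The rule used the sum of the shared reads of both strands, and did not use which strand they came from. A read in the overlap that is sense to one partner is antisense to the other. The antisense count of a model is therefore an upper bound on the shared reads of its partner, and the rest of the shared count is a lower bound on its own. This comparison is made over the same stretch of sequence and so does not depend on the lengths of the models. In each pair, the model of higher mean CPM is called the stronger one.

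The shared reads came mostly from one strand. In 25 of the 35 matched pairs, at least 90% of them were transcribed from the same partner in both libraries, and in 11 pairs at least 99% came from the stronger partner. The stronger model was the source in 23 of the 25 and the weaker model in 2. A model cannot give more shared reads than it has sense counts. In 10 of the 23 the weaker model had fewer than 10 sense counts in both libraries, which all but fixed the source. The sense counts of ACLKA7_002261, ACLKA7_003226 and ACLKA7_009745 were also under 10% of the shared reads in both libraries. In these pairs the source restates the unequal sense counts. The level that makes a model the stronger one includes its own shared reads. In sense counts outside the overlap, the source still exceeded its partner in both libraries in 21 of the 25 pairs and was below it in 2. The order differed between libraries or was unsettled in 2. Unlike the shares within the overlap, these counts depend on the lengths of the models. Where the weaker model had fewer than 10 sense counts in both libraries, little room was left for another order. In the 10 matched pairs outside the 25, the bounds did not settle the share at 90%. At a simple majority, the stronger model gave most shared reads in 29 pairs, the weaker model in 5, and 1 pair was undecided. The median lower bound for the stronger model was 97.7% in replicate 1 and 96.6% in replicate 2. No pair was shown to draw on both strands at more than 10% each in both libraries.

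**Figure D1:**
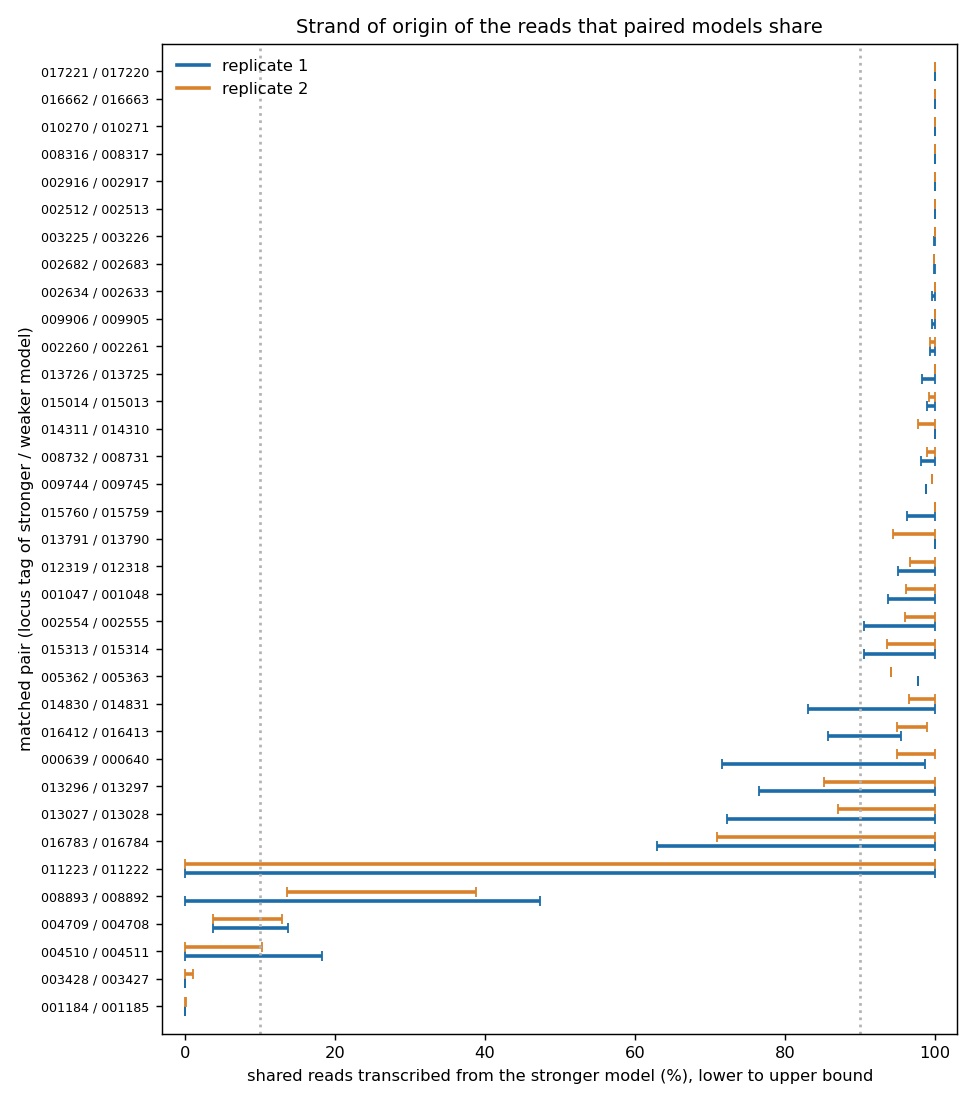
Percentage of the shared reads of each of the 35 matched pairs that was transcribed from the stronger model, drawn as the range between lower and upper bound in replicate 1 and in replicate 2; dotted lines mark 10% and 90%. Most ranges lie against the right edge, 5 pairs lie to the left of 50%, and the pair 011223 / 011222 spans the whole axis.

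Among the matched pairs, the one with the most shared reads was ACLKA7_003225 and ACLKA7_003226, with 6873 in replicate 1 and 3632 in replicate 2. ACLKA7_003225 had 8702 and 4346 sense counts, or 333 and 170 CPM. ACLKA7_003226 had 13 and 2 sense counts against 6897 and 3646 antisense counts. At least 99.8% of the shared reads came from ACLKA7_003225 in replicate 1 and 99.9% in replicate 2, so the reads on the weaker model were nearly all those of its partner.

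ACLKA7_002512 and ACLKA7_002513 had the same form, with 2243 and 3566 shared reads. ACLKA7_002512 had 2807 and 4503 sense counts, and ACLKA7_002513 had 2 and 8. The stronger model was high and the weaker near 0 in both libraries, although the antisense counts of ACLKA7_002513 reached 2739 and 4693.

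ACLKA7_009744 and ACLKA7_009745 shared 705 reads in replicate 1 and 3571 in replicate 2. ACLKA7_009744 had 1023 and 5464 sense counts, 127 ± 124 CPM (SD, n = 2). ACLKA7_009745 had 8 and 13 sense counts, which made up 0.776% and 0.237% of the sense counts of the pair. All its strand-specific counts were shared in both libraries.

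ACLKA7_002682 and ACLKA7_002683 shared 1696 and 864 reads. ACLKA7_002682 had 3785 and 2843 sense counts, and ACLKA7_002683 had 2 and 1. With strand ignored, ACLKA7_002683 had 0 counts in both libraries, since every read on it also fell in its partner.

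ACLKA7_002634 and ACLKA7_002633 shared 488 and 1813 reads. ACLKA7_002634 had 596 and 2216 sense counts, 54.8 ± 45.2 CPM (SD, n = 2), and ACLKA7_002633 had 2 and 0. The remaining pair of these 6, ACLKA7_001184 and ACLKA7_001185, shared 1035 and 1396 reads and was of the other kind, described with the reads of the weaker partner.

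In 10 matched pairs the weaker model had fewer than 10 sense counts in both libraries, with at most 5 in replicate 1 and 8 in replicate 2. The same 10 models carried 203 to 2739 antisense counts in replicate 1 and 94 to 4693 in replicate 2. Summed over the 10, 14 sense counts stood against 7902 antisense counts in replicate 1, and 17 against 10100 in replicate 2. All 10 pairs drew at least 90% of their shared reads from the stronger model, which their selection all but fixed. A weaker model cannot give more shared reads than it has sense counts. In 7 of the 10, at least 90% of the counts of the weaker model were shared in both libraries, so nearly every read on it lay in its partner. Whether these few sense counts are reads of the model or reads given the wrong strand cannot be told apart.

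Of these weaker models, 4 had no sense count in either library, and the 3 with the most shared reads among them are given here as the most uneven pairs. ACLKA7_016662 had 561 and 812 sense counts, while ACLKA7_016663 had 0 and 0 with 205 and 395 antisense counts, all of them shared. ACLKA7_008316 had 504 and 411 sense counts, and ACLKA7_008317 had 0 and 0 with 203 and 129 antisense counts. Every read on ACLKA7_016663 and ACLKA7_008317 was thus shared, which does not show how far a model without sense reads extends. This was unlike ACLKA7_017220. Its partner ACLKA7_017221 had 568 and 365 sense counts, and ACLKA7_017220 had 0 and 0 with 1148 and 1434 antisense counts. Of the counts of ACLKA7_017220, 19.2% and 11.7% were shared, so most of its antisense reads lay outside the exons of any model on the other strand.

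Reads of the weaker partner filled the overlap in ACLKA7_001184 and ACLKA7_001185. ACLKA7_001184 had 4213 and 7186 sense counts, or 161 and 281 CPM, and ACLKA7_001185 had 1692 and 2512, or 64.7 and 98.3 CPM. The antisense count of ACLKA7_001185 was 0 in replicate 1 and 2 in replicate 2, so at most 0.143% of the shared reads came from the stronger model. ACLKA7_003428 and ACLKA7_003427, named after their values were seen, were the other such pair. They shared 83 and 91 reads, of which at most 1.10% came from the stronger ACLKA7_003428, although it had 756 and 397 sense counts against 295 and 187.

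Bounds were wide where both partners had antisense reads. In ACLKA7_008893 and ACLKA7_008892, named after their values were seen, between 13.6% and 38.9% of 198 shared reads came from the stronger model in replicate 2, and at most 47.3% of 93 in replicate 1. ACLKA7_011223 and ACLKA7_011222 had more antisense than shared counts on both sides, with 69 and 62 against 50 in replicate 1, and nothing could be said of the source.

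Shared reads were a larger part of the counts of the weaker model in most pairs. Shared counts made up a median of 52.4% and 57.1% of the strand-specific counts of weaker models, against 12.7% and 19.1% for stronger models. The share was larger for the weaker model in both libraries in 30 of 35 pairs and larger for the stronger model in 2. The partners of a matched pair have nearly the same shared count, so the order of their shares restates which of them has fewer counts in all and is no separate result. Over all 82 members the median share was 31.1% in replicate 1 and 31.2% in replicate 2. In 10 members at least 90% of the counts were shared in both libraries, and in 15 members fewer than 10%.

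**Figure D2:**
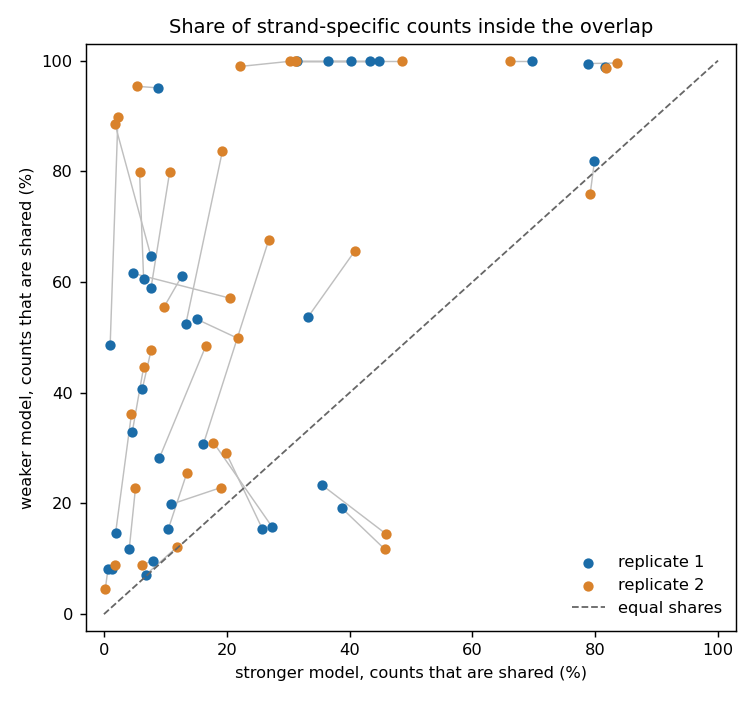
Percentage of the strand-specific counts that is shared in the stronger model (horizontal) and the weaker model (vertical) of the 35 matched pairs; each pair has a point per library joined by a grey line, and the dashed line marks equal shares. In 30 pairs both points lie above the line, and a row of weaker models lies at or near 100%.

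Sense levels of the partners were unequal in most pairs. Counts were not corrected for model length, so these balances compare counts and not transcript numbers. The median level was 49.0 and 54.4 CPM for stronger models and 4.09 and 1.72 CPM for weaker models, in replicates 1 and 2. The weaker model held a median of 5.44% of the sense counts of the pair in replicate 1 and 2.83% in replicate 2. It held under 1% in both libraries in 11 pairs, over 25% in both in 7, and lay between or differed in 17. The same model had more sense counts in both libraries in 32 of 35 pairs.

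**Figure D3:**
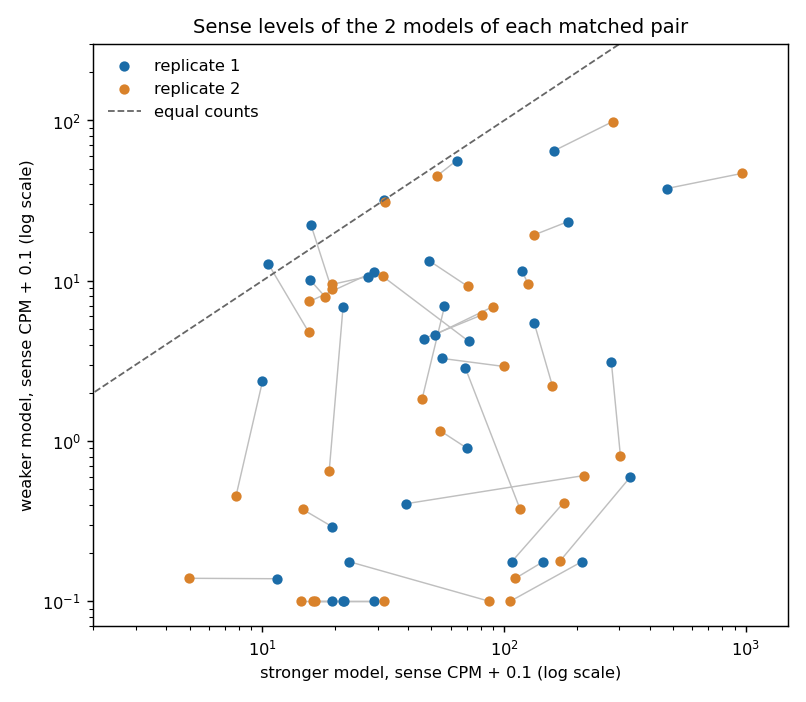
Sense CPM of the stronger model (horizontal) and weaker model (vertical) of the 35 matched pairs, on log axes after adding 0.1 CPM; points are libraries, grey lines join the libraries of a pair, and the dashed line marks equal counts. Most pairs lie well below the dashed line, and 4 weaker models sit at the floor with no sense count in either library.

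The most even pair was ACLKA7_004510 and ACLKA7_004511. ACLKA7_004510 had 827 and 817 sense counts, 31.8 ± 0.246 CPM (SD, n = 2), and ACLKA7_004511 had 831 and 787, or 31.3 ± 0.693 CPM. The share of ACLKA7_004511 was 50.1% of the pair in replicate 1, with a 95% exact (Clopper-Pearson) interval of 47.7 to 52.6, and 49.1% in replicate 2, with one of 46.6 to 51.5. Their order changed between the libraries, and both intervals included equality. Of their 82 and 68 shared reads, at most 18.3% and 10.3% came from ACLKA7_004510, so equal counts over the whole models stood beside an overlap read mostly from one strand.

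ACLKA7_013296 and ACLKA7_013297 were nearly as even. ACLKA7_013296 had 1659 and 1343 sense counts, and ACLKA7_013297 had 1466 and 1148, which was 46.9% (45.1 to 48.7) and 46.1% (44.1 to 48.1) of the pair. At least 76.5% of 115 shared reads and 85.3% of 163 came from ACLKA7_013296. In both libraries the overlap was thus less balanced than the models.

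ACLKA7_008732 and ACLKA7_008731, which came next on average, reached that average by changing order. ACLKA7_008732 had 413 and 491 sense counts and ACLKA7_008731 had 577 and 225, a share of 58.3% (55.1 to 61.4) in replicate 1 and 31.4% (28.0 to 35.0) in replicate 2. At least 98.1% and 98.98% of the shared reads came from ACLKA7_008732 all the same. The model with more counts outside the overlap in replicate 1 was therefore not the one read in the overlap.

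Whether the balance of a pair differed between the libraries was tested with a two-sided Fisher's exact test on the 4 sense counts, which needs no scaling of the libraries. It was run on 11528 pairs of adjacent tags in which each model had at least 10 sense counts summed over the libraries. Benjamini-Hochberg adjustment was made over all of these pairs. The test compares these 2 libraries by counting error and no conditions. Of all pairs tested, 71.7% differed at an adjusted threshold of 0.05. Among the matched pairs, 27 could be tested and 16 (59.3%) differed. The median size of the change in the log2 ratio of the partners was 1.02 in matched pairs and 0.93 in all pairs tested. A change of 2-fold or more was seen in 14 of 27 matched pairs (51.9%) and in 47.0% of all. These shares lie near those of adjacent models at large, and no test of the difference was made.

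The direction was less even. Of the 16 matched pairs that differed, the weaker model held a lower share in replicate 2 in 15 and a higher share in 1. These 15 are 55.6% of the 27 matched pairs tested, against 40.3% of all adjacent pairs tested. Among the adjacent pairs that differed, 56.2% had the lower share in replicate 2. Whether or not the test called a difference, the weaker share was lower in replicate 2 in 20 of the 27 matched pairs tested (74.1%). This was so in 55.0% of all adjacent pairs tested. Among pairs in which the weaker model held under 25% of the counts, this was so in 14 of 19 matched pairs (73.7%) and in 59.3% of 6721 adjacent pairs. The pairs of the whole table thus leaned the same way, and whether the matched pairs lean further was not tested.

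**Figure D4:**
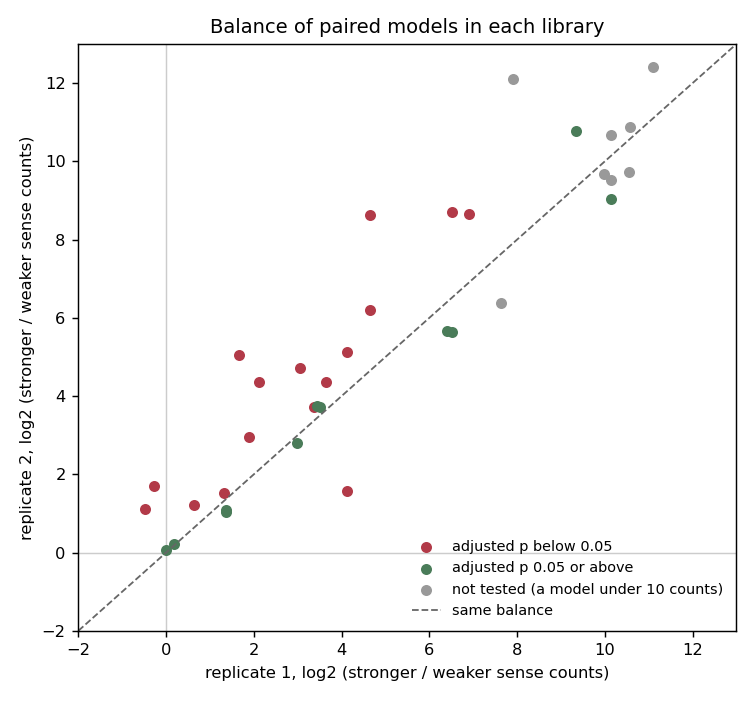
Log2 ratio of stronger to weaker sense counts (0.5 added to each count) in replicate 1 (horizontal) and replicate 2 (vertical) for the 35 matched pairs, coloured by the adjusted p of Fisher's exact test; the dashed line marks the same balance. Of the 16 pairs past the threshold, 15 lie above the line and 1 below.

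The largest changes of balance were in ACLKA7_002634 and ACLKA7_002633, given above, then in ACLKA7_013027 and ACLKA7_013028. In the first, the change of 4.22 in the log2 ratio rests on 2 and 0 counts of the weaker model and the pair was not tested. ACLKA7_013027 had 1804 and 2974 sense counts and ACLKA7_013028 had 72 and 7. The weaker share went from 3.84% (3.01 to 4.81) to 0.235% (0.0945 to 0.483), with an adjusted p of 3.98e-22 by Fisher's exact test. ACLKA7_013027 was higher in replicate 2 and ACLKA7_013028 lower, with no overlap of the counting intervals of the share.

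ACLKA7_015014 and ACLKA7_015013 followed with a change of 3.39. ACLKA7_015014 had 561 and 480 sense counts, 20.1 ± 1.89 CPM (SD, n = 2), and ACLKA7_015013 had 177 and 14, or 3.66 ± 4.40 CPM. The weaker share fell from 24.0% (20.9 to 27.2) to 2.83% (1.56 to 4.71), with an adjusted p of 2.52e-27 by Fisher's exact test. Of 90 and 129 shared reads, at least 98.9% came from the stronger model. In ACLKA7_008893 and ACLKA7_008892, the pair with the opposite direction, the counts were 1861 and 800 against 107 and 270, so the weaker share was 5.44% in replicate 1 and 25.2% in replicate 2.

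The level of single members between the libraries was tested with a two-sided exact binomial test over 13241 models with 10 or more sense counts in sum, with library sizes scaled by the trimmed mean of M-values (TMM). Of all models tested, 77.0% differed at an adjusted threshold of 0.05. By direction, 38.0% of all models tested differed with the higher level in replicate 2 and 39.0% with it in replicate 1. Of the members, 73 were tested and 61 (83.6%) differed, of which 39 had their higher level in replicate 2 and 22 in replicate 1. Scaling by library totals turned this split to 25 against 40, so the direction in which more members differ depends on the scaling. Members of 10 CPM or more numbered 48, and 18 of them (37.5%) lay at least 2-fold apart, against 32.1% of all models at that level. With TMM, 16 of the 18 were higher in replicate 2 and 2 in replicate 1, whereas library totals left 8 members 2-fold apart, 4 in each direction. TMM shifted every log2 ratio by 0.52 towards replicate 2 relative to library totals. The median absolute log2 ratio of these 48 members was 0.65, beside 0.69 over all models of 10 CPM or more. With sign, as replicate 2 over replicate 1 with TMM, the medians were 0.40 and 0.068. Whether members lean further towards replicate 2 than all models was not tested. In 21 matched pairs each model had 10 or more sense counts in each library. Both partners were higher in the same library in 13 of these pairs with TMM and in 10 with library totals. No such count over all adjacent pairs stands beside these, so they do not show whether overlapping partners differ from other neighbours.

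The members outside matched pairs included the most heavily shared one. ACLKA7_008064 had 5579 and 906 sense counts and 13142 and 12507 antisense counts. Its neighbour ACLKA7_008065, above the CPM limit at 7223 and 9550 CPM, had 188824 and 243958 sense counts. They shared 13105 and 12492 reads, of which at least 99.6% and 99.2% came from ACLKA7_008065. ACLKA7_008064 alone held 25.6% and 22.7% of the shared counts of all members. Its sense level was 213 CPM in replicate 1 and 35.5 CPM in replicate 2, so its sense reads differed widely between the libraries. The antisense counts on it, not scaled between the libraries, differed less.

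ACLKA7_002547 had 151 and 515 sense counts and 683 and 1738 antisense counts. Its neighbour ACLKA7_002548 had 26562 and 34171 sense counts and gave at least 96.3% of 684 and 98.2% of 1733 shared reads. The remaining member with a neighbour above the limit, ACLKA7_011375, shared 66 and 75 reads with ACLKA7_011374, and the bounds did not settle their source. ACLKA7_003238 and ACLKA7_003240 matched across an intervening tag, with 135 and 58 shared reads that came wholly from ACLKA7_003240 by the bounds.

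In the 3 groups of 3 models, the shared count of the middle model was close to the sum of those of its neighbours. ACLKA7_015146 had 581 and 554 shared counts, against 580 and 554 for ACLKA7_015145 and ACLKA7_015147 together. ACLKA7_012734 had 509 and 777, against 502 and 766 for ACLKA7_012733 and ACLKA7_012735. ACLKA7_012209 had 539 and 130, against 513 and 122 for ACLKA7_012208 and ACLKA7_012210. Each middle model thus overlapped a model on either side by these counts.

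In the first and second groups most shared reads came from the middle model where the bounds settled it. ACLKA7_015146 had 3001 and 1865 sense counts and gave at least 99.8% and 99.3% of the reads shared with ACLKA7_015145, which had 1586 and 289. Of the 86 and 16 reads shared with ACLKA7_015147, it gave at least 98.8% in replicate 1 and 75% in replicate 2, where few reads leave the source unsettled at 90%. ACLKA7_012734 had 836 and 1594 sense counts and gave at least 99.6% of the reads shared with ACLKA7_012735 in replicate 1 and 100% in replicate 2. It also gave at least 95.2% of 42 and 100% of 155 reads shared with ACLKA7_012733. ACLKA7_012735 had 349 and 127 sense counts.

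The remaining group was unlike the rest. ACLKA7_012209 had 280 and 84 sense counts beside 271 and 51 antisense counts, and 97.8% and 96.3% of its counts were shared. Between 23.05% and 56.1% of the 269 reads shared with ACLKA7_012210 came from ACLKA7_012209 in replicate 1, and between 38.7% and 58.1% of 62 in replicate 2. By these bounds both strands were read in this overlap in both libraries, with at least 41.9% from ACLKA7_012210 in replicate 2. The bounds hold where no further model overlaps, whereas ACLKA7_012209 also overlapped ACLKA7_012208. Of the 244 and 60 reads shared with ACLKA7_012208, at least 7.79% came from ACLKA7_012209 in replicate 1 and 58.3% in replicate 2. Both upper bounds were 100%, so the source of those reads was not settled. ACLKA7_012210 itself had 207 and 38 sense counts, so the whole group was lower in replicate 2.

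Antisense reads beyond the shared ones lie in a member but in no exon of a model on the other strand. At least 100 such reads were found in both libraries in 7 members, named here after their values were seen. ACLKA7_001184 had the most, with at least 2880 and 5654, so antisense reads made up 48.2% and 49.5% of its strand-specific counts. ACLKA7_017220 had at least 928 and 1266, and ACLKA7_002513 at least 495 and 1127. The other members were ACLKA7_010271, ACLKA7_002261, ACLKA7_004510 and ACLKA7_003238, with at least 125 in replicate 1 and 146 in replicate 2. In 23 of 82 members antisense counts exceeded sense counts in both libraries, and in 55 sense counts exceeded antisense counts in both.

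Counts made without strand differed from sense counts in both directions. Among the 67 members with 10 or more sense counts in both libraries, the strandless count lay within 20% of the sense count in both libraries in 33. It was at most 50% of the sense count in both in 7, because shared reads were dropped. ACLKA7_003225 kept 1847 of 8702 counts in replicate 1 and 719 of 4346 in replicate 2. ACLKA7_012209 kept 12 of 280 and 5 of 84. In 2 members the strandless count was at least 1.5 times the sense count in both, through antisense reads. ACLKA7_002261 had 21 and 27 sense counts but 244 and 305 strandless counts, and ACLKA7_001184 had 4213 and 7186 against 7093 and 12840.

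**Figure D5:**
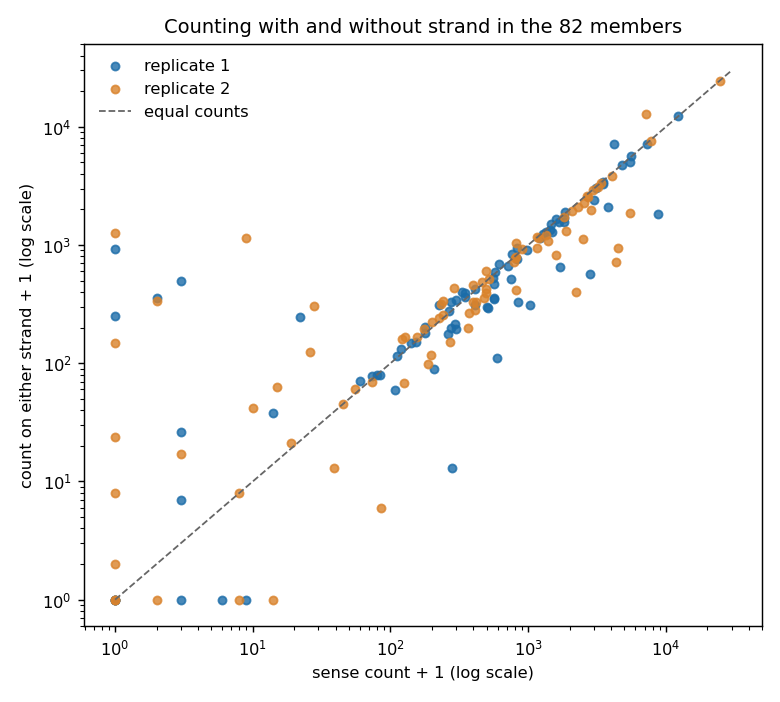
Sense count (horizontal) and count on either strand (vertical) of the 82 members, each with 1 added, on log axes, with a point per library; the dashed line marks equal counts. Points far below the line are models whose sense reads were mostly shared, such as ACLKA7_003225, and points far above it are models with few sense reads and many antisense reads outside the overlap, such as ACLKA7_017220.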

How the data were processed

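RNA of 2 whole-body pools was sequenced. Reads were handled with fastp and STAR 2.7.11b, per the submitters' processing notes, and models came from BRAKER 3.0.6 with these reads as evidence, per the submitters' series description. The authors deposited raw counts per model in 3 columns, without a header. The layout was read as that of a STAR gene count table, and the column of larger strand-specific sum as sense, given the directional kit in the labels. The first 4 rows, which name no model, held 38.3% and 41.2% of the reads and were left out. Multimapping reads count for no model, so near-identical copies are undercounted. The submitters describe the pools as biological replicates.

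From these counts, shared counts, bounds and CPM were computed. A shared read is counted in both models, and bounds hold where no further model overlaps. Libraries were scaled by TMM of edgeR 4.0.16 (R 4.3.3) over all models, or by DESeq2 1.42.0 size factors as an alternative. Exact binomial and Fisher's exact tests used scipy 1.17.1 with Python 3.11.15, and 0.5 was added to counts for log2 ratios. Steps were tested on simulated data. Intervals cover counting error only. With 1 group there was no comparison of conditions.

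Members and lists were chosen with earlier results of these data known. Named pairs were the 6 with the largest shared count, the 3 most even, the 3 most uneven, the 3 with the largest change of balance, and the 4 unmatched members with the largest shared count. Others were named after their values were seen, and the bounds and their 90% threshold were also chosen then.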

Additional observations from a re-analysis of the deposited data

Results flagged for a closer look

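Shared counts above the limit of 3 that a count of 0 allows were also found outside the first 4 runs of tags. No members were taken from those runs, although the tests over all models and adjacent pairs included them. The sixth run held 4 models with at least 50 in both libraries. ACLKA7_006037 and ACLKA7_006040 each had 105 shared counts in replicate 1 and 192 in replicate 2, a mean of 148.5. ACLKA7_006037 had 52 and 11 sense counts with 183 and 306 antisense counts, and ACLKA7_006040 had 254 and 461 sense counts. ACLKA7_007400 and ACLKA7_007401 each had 134 and 60, a mean of 97, with 4476 and 2780 sense counts in the first and 984 and 850 in the second.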

How the results depend on the processing

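No paired analysis was possible because the series holds 1 group. Of 36 alternatives for 9 results, 24 left the value within the spread between the libraries or 1.5 times the count. A shared-count minimum of 20 gave 178 members, 79 matched pairs and 39 pairs with at least 90% of shared reads from one strand. A minimum of 100 gave 39 members and 16 matched pairs. The median weaker share, 6.005% as a mean of the libraries, was 8.80% with strandless counts. The share of counts that a member shares was 36.4% as a median over means of the libraries for all 82 members. Over sense counts alone it was 8.70%. That value used the midpoint of the bounds and only models of matched pairs with sense counts, so set and measure both differ. Members 2-fold apart numbered 8 with library totals, split 4 against 4, where TMM gave 16 towards replicate 2 and 2 towards replicate 1. With either library alone, members numbered 106 to 122 and matched pairs 44 to 55. Of the 35 pairs matched with both libraries, 25 to 28 were read from one strand by either library alone. Over these 35 pairs the median weaker share was 2.83% to 5.44% by library, as in the report. Over the 82 members the median shared share was 31.1% to 31.2%, also as in the report. Tests between the libraries need both. The alternatives for pairs read from one strand were chosen after seeing the data. Shared counts near 50 and sense counts under 10 limit the bounds and balances.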
